A study of Mus musculus with 16 samples.

Results

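The Hox genes of mouse back skin were taken from RNA-Seq tables of 2 stages, the embryonic stage E13.5 and the day of birth (P0). Members were the genes whose symbol is Hox followed by a, b, c or d and digits only, with Hoxc13 left out, which gave 38 of the 49452 genes in each table. They lie in 4 clusters of the mm10 build. The Hox A cluster had 11 members within chr6:52155590-52260880 on the minus strand, the Hox B cluster 10 within chr11:96194316-96368256, the Hox C cluster 8 within chr15:102936757-103036852 and the Hox D cluster 9 within chr2:74668310-74765142, the last 3 on the plus strand.

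Sas-4, listed as Cenpj in the tables, encodes a protein needed to build centrioles, and the study removed it with K14-Cre, a recombinase driven by a keratin promoter of stratified epithelia such as the epidermis. All mice were of a mixed FVB/C57BL6 background, and each stage had 4 control and 4 mutant libraries. At E13.5 sheets of back-skin epidermis were freed from the dermis with enzymes. At P0 keratinocytes were released from back skin and frozen without plating. The E13.5 titled controls carried Sas-4 fl/wt without K14-Cre, so Cre and Sas-4 genotype cannot be told apart there, and the E13.5 titled mutants carried K14-Cre tg/wt with Sas-4 fl/fl. The P0 controls carried Sas-4 fl/wt, with K14-Cre in replicates 2 and 3 and without it in replicates 1 and 4, and the P0 mutants carried K14-Cre tg/wt with Sas-4 fl/fl. Libraries of a group are numbered replicates in the titles, so p-values measure the spread between these libraries.

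For all 8 E13.5 libraries the column names of the table give the opposite genotype to the sample titles. Cenpj gave 3.72, 3.85, 3.56 and 3.66 FPKM (fragments scaled to transcript length and to the fragments mapped in the library) in titled controls 1 to 4 and 9.17, 8.66, 9.02 and 8.74 in titled mutants 1 to 4 (log2 fold change 1.08, limma adjusted p = 1.87e-06). At P0, where titles and column names are the same, Cenpj gave 4.35, 3.35, 3.22 and 4.29 FPKM in controls and 1.52, 1.41, 1.35 and 1.09 in mutants (log2 fold change -1.03, adjusted p = 0.000141). The targeted gene was thus lower in the P0 mutants, and at E13.5 lower in the libraries that the column names call mutant. By title it was higher in the E13.5 mutants, so Cenpj goes with the column names there. E13.5 groups are called titled control and titled mutant below, and every E13.5 difference has the opposite sign when the column names are used. In addition, the E13.5 sample descriptions carry a number of unstated meaning, which is 67 in titled controls 3 and 4 and a different one, shared by all, in the other libraries.

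FPKM summed to 546593 to 584238 per library at E13.5 and to 605744 to 740238 at P0, with 12726 to 12889 and 12407 to 13189 genes at 1 FPKM or more, and the number of reads behind them is unknown. All 11 keratinocyte markers passed the filter at both stages, with Krt5, a keratin of basal keratinocytes, at 1011 to 1340 FPKM at E13.5 and 8774 to 10261 at P0. Markers of endothelium summed to at most 0.872 FPKM at E13.5 and 1.46 at P0. The P0 values were lower in the mutants for most genes, with a median log2 fold change of -0.15 over the 13033 genes tested. At E13.5 the median over 12866 genes was 0.00. Y-linked transcripts were present in 1 of 4 titled control and 1 of 4 titled mutant libraries at E13.5, and in 1 of 4 control and 3 of 4 mutant libraries at P0.

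Hox genes encode homeodomain transcription factors that give cells their position along the body. Within a cluster the genes are numbered by paralog group from the 3′ end, and genes of low number are active nearer the head, whereas genes of high number are active toward the tail and in the distal limb. In skin, fibroblasts of the dermis are known to keep a Hox pattern that depends on their site of origin. Hox proteins bind DNA together with cofactors of the Pbx and Meis families, and Polycomb and Trithorax complexes keep the genes off or on.

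The control libraries of both stages showed a pattern that broke off at paralog group 9. Of the 23 members of groups 1 to 8, 20 had a mean of at least 1 FPKM in the E13.5 titled controls and 19 in the P0 controls. In group 9, 2 of 4 members reached that level at each stage, Hoxa9 and Hoxb9, genes that help to set rib identity. None of the 11 members of groups 10 to 13, which pattern the lumbar to tail region, the limbs and the urogenital tract, did so at either stage (0 of 11). Their highest control mean was 0.0613 FPKM at E13.5 and 0.127 at P0, and the highest of any library was 0.316 and 0.231, whereas the lowest mean among the members of groups 1 to 8 above the minimum was 2.81 at E13.5 and 1.6 at P0. Hoxa13, Hoxb13, Hoxc11, Hoxd10 and Hoxd12 were listed at 0 in all 8 libraries of E13.5, and Hoxd12 also in all 8 of P0. A listed 0 need not mean absence, since Kmt2d, a widely used histone methyltransferase gene, was listed at 0 in E13.5 titled control 1 and at 11.5 FPKM or more in the others. The same 22 members at E13.5 and the same 21 at P0 had a mean of at least 1 FPKM in the titled mutants and the mutants.

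**Figure D1:**
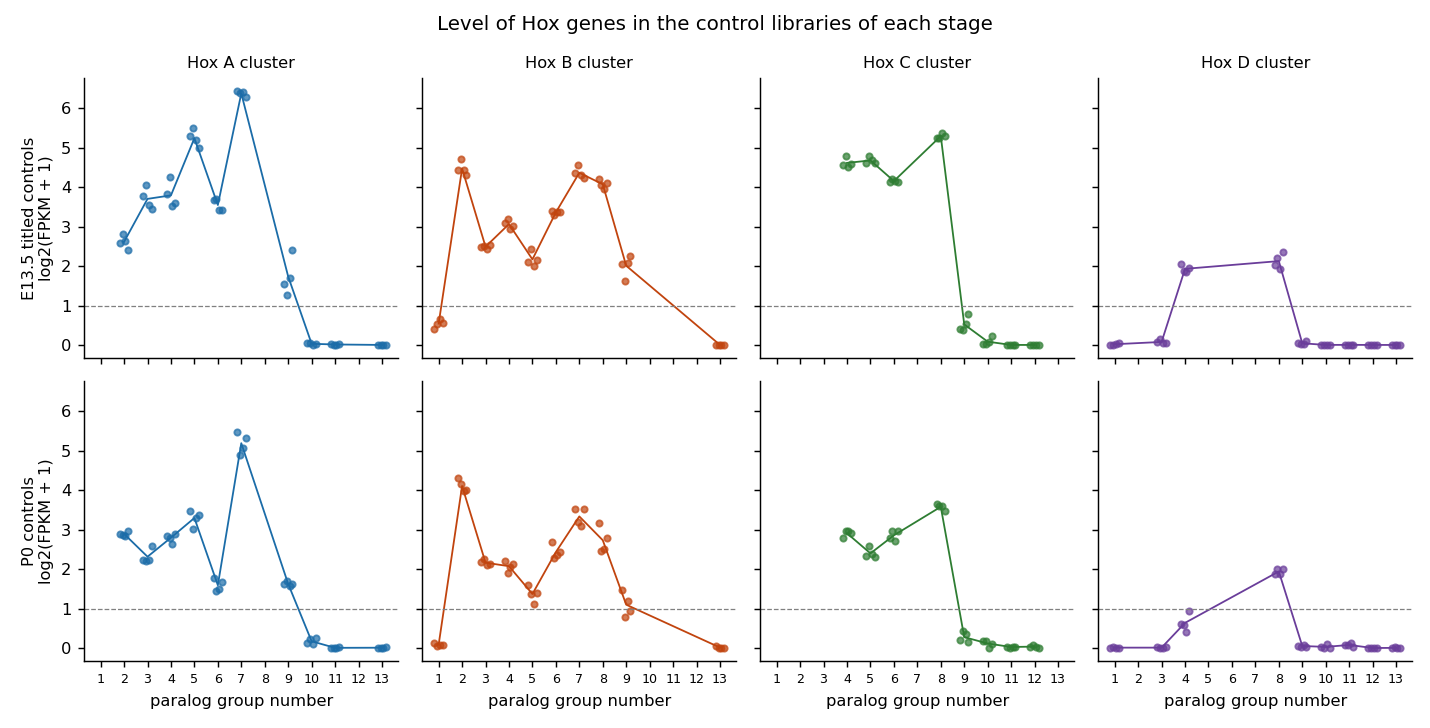
Level of Hox genes in the control libraries, one panel per cluster with paralog group on the x axis and log2(FPKM + 1) on the y axis; the upper row shows the 4 E13.5 titled controls, the lower row the 4 P0 controls. Members of groups 10 to 13 lie at or near 0 in each cluster, with 0 of 11 at 1 FPKM, and Hoxa7 is the highest at both stages.

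Hoxa7 was the most abundant member at both stages. In human keratinocytes the orthologue is known to repress differentiation genes. Hoxa7 gave 85.6, 82.3, 83.9 and 77.1 FPKM in the E13.5 titled controls and 43.8, 28.7, 32.7 and 39 in the P0 controls, and in both stages its lowest control was above every control of the next gene. At E13.5 that next gene was Hoxc8, which sets identity of thoracic segments and brachial motor neurons, with 37.1, 36.8, 40.8 and 38.6 FPKM. Hoxa5, needed for the lung and cervical skeleton, followed with 38.1, 44.6, 35.5 and 30.6 FPKM, and its range overlapped that of Hoxc8. At P0 Hoxb2, a gene of hindbrain patterning, came second with 18.8, 16.8, 14.7 and 15 FPKM, above Hoxc8 with 11.5, 11.1, 11.1 and 10.2.

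The other 19 of the 22 E13.5 members at 1 FPKM or more had control means between 24.6 FPKM (Hoxc5) and 2.48 FPKM (Hoxa9). Neighbours in the order of levels could mostly not be told apart. Control ranges overlapped in 14 of 21 neighbouring pairs at E13.5 and in 16 of 20 at P0. Hoxa5 gave 10.2, 7.16, 8.79 and 9.43 FPKM in the P0 controls. In the Hox C cluster Hoxc4 gave 22.8, 26.5, 21.9 and 23.1 FPKM at E13.5 and 5.89, 6.83, 6.86 and 6.52 at P0, a gene of the cervical and upper thoracic region.

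The Hox D cluster had the lowest summed level, 6.31 FPKM in the E13.5 titled controls and 3.54 in the P0 controls. Hoxd8 gave 3.05, 3.58, 2.8 and 4.15 FPKM in the E13.5 titled controls and 2.7, 3.02, 2.65 and 3 in the P0 controls. Hoxd4 gave 3.12, 2.68, 2.62 and 2.84 FPKM at E13.5 and 0.534, 0.5, 0.323 and 0.922 at P0, where the mutants gave 0.227, 0.306, 0.336 and 0.295 and the gene was not tested. The other members below 1 FPKM in groups 1 to 8 were Hoxd1, Hoxd3 and Hoxb1, the last with a mean of 0.459 FPKM at E13.5 and 0.0596 at P0. Hoxd3 and Hoxd4 share 53.1% and 39.1% of their exonic bases with Gm28230, so their reads cannot be assigned to either gene with certainty. Summed over members, the Hox A cluster took 48.7% of the Hox FPKM in the E13.5 titled controls, Hox C 27.3%, Hox B 22.4% and Hox D 1.66%, and at P0 these shares were 47.8%, 19.3%, 30.5% and 2.4%.

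Promoter sequence was compared between the members below and above the minimum, because Polycomb targets are often rich in CG pairs. RefSeq windows (GRCm38.p6), from 250 bases before to 50 after a start, were held for 22 of the 38 members in 24 windows. The 10 windows of members at 1 FPKM or more at both stages held 4 to 29 CG pairs (median 11), and the 13 windows of 11 members below it at both stages held 4 to 45 (median 20), against a median of 7 over 32851 windows of all genes. The ranges overlapped. Hoxa13 held the most of all member windows (45), while Hoxa5 and Hoxa6, both expressed, held 29 and 26, more than Hoxa11 (15) and the windows of Hoxa10 (21 and 12). The 250 bases before the start of the most abundant member and of the member at the 5′ end of the same cluster, both on the minus strand, are shown with CG pairs in capitals: Hoxa7 at chr6:52218574-52218823 held 7 pairs and Hoxa13 at chr6:52260881-52261130 held 35.
Hoxa7: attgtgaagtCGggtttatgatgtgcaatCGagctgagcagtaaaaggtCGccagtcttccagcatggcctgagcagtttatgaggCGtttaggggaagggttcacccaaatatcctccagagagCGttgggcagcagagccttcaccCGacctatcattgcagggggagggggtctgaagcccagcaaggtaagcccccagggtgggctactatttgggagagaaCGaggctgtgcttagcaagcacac
Hoxa13: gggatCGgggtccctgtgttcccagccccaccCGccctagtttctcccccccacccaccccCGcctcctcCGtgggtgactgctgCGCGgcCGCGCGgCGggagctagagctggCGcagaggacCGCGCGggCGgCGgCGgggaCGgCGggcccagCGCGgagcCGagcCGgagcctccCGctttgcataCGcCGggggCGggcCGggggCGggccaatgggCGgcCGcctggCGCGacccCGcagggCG
The motif TGATNNAT, of the kind bound by Hox and Pbx proteins together, was searched on both strands and found in 4 of the 24 member windows (16.7%, against 8.85% of all windows), and TATAAA in 4 of 24 (16.7%, against 13.6%). A match is only a match of letters.

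Hox levels were lower at P0 than at E13.5. The tables of the stages were made separately and the sampled cells were prepared differently, so these values are set side by side without a test. Over the 21 members at 1 FPKM or more in the controls of both stages, the median ratio of P0 to E13.5 titled controls was 0.437, from 0.174 for Hoxc5 to 1.25 for Hoxa2, and 20 of 21 ratios were below 1. Over 11923 genes that met the same minimum the median ratio was 0.864, with 63% below 1. With the E13.5 libraries named control by column, the medians were 0.385 for the members (19 of 21 below 1) and 0.87 for all genes. The order of levels was similar, with a Spearman correlation across genes of 0.94 over 38 members and 0.80 over the 21, which are not independent of each other and share their libraries.

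**Figure D2:**
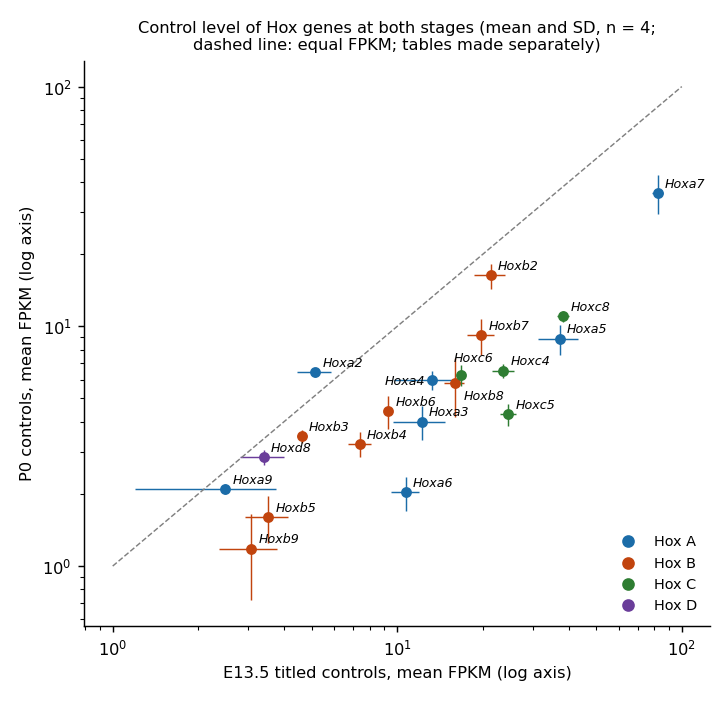
Mean FPKM of the Hox genes in E13.5 titled controls (x axis, log scale) and P0 controls (y axis, log scale), with SD over 4 libraries; the dashed line marks equal FPKM. Of the 20 members drawn, all at 1 FPKM or more at both stages, 19 lie below the line and Hoxa2 lies above it.

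In the P0 mutants most expressed Hox genes were lower than in controls, and Hoxb9 was 4.61-fold higher. Values were tested on log2(FPKM + 1) with limma, and a gene was called at an adjusted p of at most 0.05. Of the 21 members tested, 10 fell and 1 rose, while over all genes tested 30.7% were called lower, 11.7% higher and 42.3% in either direction. Groups did not overlap for 11 of the 21 members, against 43.5% of all genes. The log2 fold change was below 0 for 18 of 21 members, against 65.8% of all genes, and its median was -0.35 for the members. With median-of-ratios scaling the median of all genes moved from -0.15 to -0.01 and that of the members to -0.22, and 6 members fell (Hoxa2, Hoxa3, Hoxb2, Hoxb3, Hoxb6 and Hoxb8) and Hoxb9 rose. With quantile normalization the members' median was -0.11, 4 fell (Hoxa2, Hoxa3, Hoxb2 and Hoxb3) and 2 rose, among them Hoxb9. Over all genes the split of 1520 higher and 3995 lower became 2430 and 2524 with the first scaling and 2320 and 2480 with the second.

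**Figure D3:**
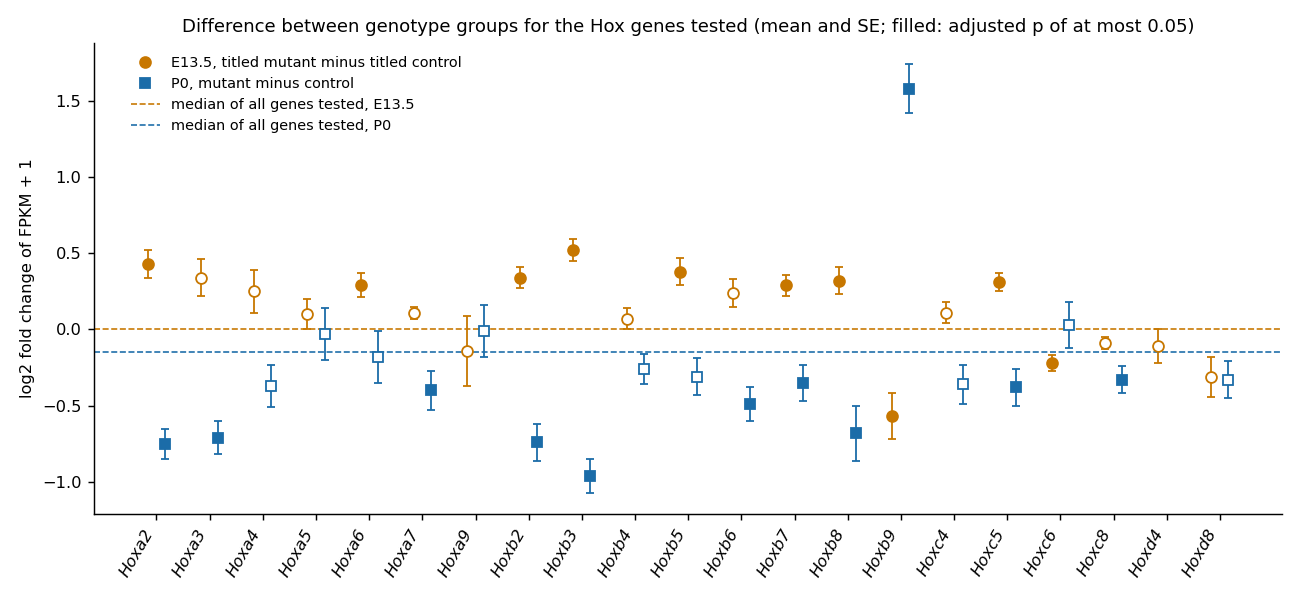
Log2 fold change with SE of the Hox genes tested, in cluster order on the x axis, for E13.5 (titled mutant minus titled control) and P0 (mutant minus control); filled points have an adjusted p of at most 0.05. At P0 Hoxb9 stands at 1.58 and Hoxb3 at -0.96, and at E13.5 by title the same genes stand at -0.57 and 0.52; by column name the E13.5 signs are the opposite.

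Hoxb9, which acts with its group 9 paralogs on thoracic identity, gave 1.78, 0.727, 1.27 and 0.929 FPKM in the P0 controls and 5.57, 6.21, 4.41 and 5.52 in the mutants. Every mutant library lay above every control. The mean was 1.18 ± 0.461 (SD, n = 4) in controls and 5.43 ± 0.749 in mutants, a log2 fold change of 1.58 (SE 0.16, limma adjusted p = 7.74e-05). It was the only member to pass a 2-fold rule on log2(FPKM + 1) with an unadjusted p of at most 0.05 (1 of 21, against 7.96% of all genes). The thresholds are those of the study, but this scale understates changes of low genes, and Hoxb3 was 2.66-fold lower in FPKM. Hoxb9 was called in 16 of 16 alternative settings, with log2 fold changes of 1.47 to 2.17. The other group 9 member tested, Hoxa9, gave means of 2.09 FPKM in controls and 2.13 in mutants (adjusted p = 0.961).

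The genes of paralog groups 2 and 3 held the largest decreases at P0 on the log2(FPKM + 1) scale. Hoxb3, a gene of hindbrain and branchial arch patterning, gave 3.51, 3.78, 3.27 and 3.37 FPKM in controls and 1.17, 1.73, 1.12 and 1.2 in mutants, 2.66-fold lower (log2 -0.96, SE 0.11, adjusted p = 0.000128). Its groups lay far apart. Hoxa2, which sets the identity of the second branchial arch, gave 6.44, 6.28, 6.21 and 6.82 FPKM in controls and 3.45, 2.98, 4.07 and 3.3 in mutants, 1.87-fold lower (log2 -0.75, SE 0.10, adjusted p = 0.000326). Hoxa3, needed for the thymus and parathyroid, gave 3.7, 3.65, 3.71 and 4.96 FPKM in controls and 1.89, 1.9, 2.09 and 2.34 in mutants, 1.95-fold lower (log2 -0.71, SE 0.11, adjusted p = 0.000944). Hoxb2 gave 8.71, 8.21, 9.29 and 11.4 FPKM in mutants, against the control values given above, and was 1.74-fold lower (log2 -0.74, SE 0.12, adjusted p = 0.0011). In all 4 of these genes every mutant library was below every control, and each was called in every alternative in which it was tested, 16 of 16 for Hoxa2, Hoxa3 and Hoxb3 and 17 of 17 for Hoxb2. Hoxb2 and Hoxb3 share 27.3% and 52.9% of their exonic bases with the antisense transcript Hoxb3os, and whether counting used the strand is not stated.

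The members of groups 5 to 8 that were called had smaller decreases on that scale. In mean FPKM, however, Hoxb8 (1.81-fold) fell by more than Hoxb2 (1.74-fold). Hoxb8, which is active in myeloid progenitors, gave 8, 4.49, 4.71 and 5.93 FPKM in controls and 3.74, 2.34, 3.44 and 3.26 in mutants (1.81-fold lower, log2 -0.68, SE 0.18, adjusted p = 0.0127). Hoxb6, a gene of the thoracic region, gave 5.41, 3.84, 4.09 and 4.38 FPKM in controls and 3.03, 2.45, 2.76 and 3.15 in mutants (1.56-fold lower, log2 -0.49, adjusted p = 0.0075). Hoxc8 gave 7.34, 8.91, 8.96 and 9.03 FPKM in mutants (1.28-fold lower, log2 -0.33, SE 0.09, adjusted p = 0.0161). The groups of these 3 genes did not overlap. Hoxc5, of the cervical and upper thoracic region, gave 4.05, 4.96, 4.18 and 3.97 FPKM in controls and 2.28, 3.2, 3.28 and 3.58 in mutants (log2 -0.38, adjusted p = 0.0332), also without overlap. Hoxa7 gave 27.1, 24.8, 26 and 29.4 FPKM in mutants (log2 -0.40, SE 0.13, adjusted p = 0.0321), and its highest mutant lay above the lowest control. Hoxb7, a gene of the thoracic region that also marks the embryonic kidney duct, gave 10.6, 8.22, 7.47 and 10.5 FPKM in controls and 6.48, 6.68, 6.87 and 7.7 in mutants (log2 -0.35, adjusted p = 0.0432), with overlap. The last 3 calls were the least stable, since Hoxc5 was called in 4 of 16 alternatives and lost with any library but mutant 4 left out, Hoxa7 in 7 of 17 and lost without control 1 or 4 or mutant 1, 2 or 3, and Hoxb7 in 5 of 17 and lost without control 1, 2 or 4 or mutant 1, 2 or 3. Their adjusted p ranged from 0.0173 to 0.575, 0.0132 to 0.292 and 0.0226 to 0.452 over these alternatives.

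The remaining 10 members tested at P0 did not pass. Hoxa6 gave 2.4, 1.7, 1.8 and 2.21 FPKM in controls and 2.08, 1.76, 2.15 and 0.897 in mutants, and Hoxb5 gave 2.04, 1.58, 1.17 and 1.62 against 1.21, 0.955, 1.05 and 1.13 (adjusted p = 0.43 and 0.0544), both with overlap. Hoxb4 and Hoxc4 had groups that did not overlap, with adjusted p of 0.0585 and 0.0501. Hoxc4 gave 3.71, 4.58, 5.76 and 5.69 FPKM in mutants, all below its controls. Hoxa5 gave 7.1, 7.59, 8.16 and 12.6 FPKM in mutants, spread around its controls (log2 -0.03, adjusted p = 0.916). Hoxc6, another thoracic gene, gave 5.89, 6.81, 5.57 and 6.81 FPKM in controls and 5.11, 5.71, 6.47 and 8.74 in mutants (log2 0.03, adjusted p = 0.899). Hoxd8 gave 1.72, 2.79, 1.79 and 2.03 FPKM in mutants (log2 -0.33, adjusted p = 0.052), with overlap. By cluster, 3 of 8 tested members fell in Hox A, 5 of 8 fell and 1 rose in Hox B, 2 of 4 fell in Hox C and the 1 tested in Hox D gave no call. The Hox B sum was 45.3 ± 6.15 FPKM in controls and 32.8 ± 2.19 in mutants, and the sum of all 38 members was 148.2 ± 14 and 114.7 ± 10.6 (SD, n = 4).

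The P0 calls moved with the choice of control libraries. The K14-Cre controls, replicates 2 and 3, were below both others for 10 of 21 members and above both for 2, against 18.7% and 20.5% of all genes tested. With only these controls, Hoxa2, Hoxa3, Hoxb2 and Hoxb3 fell and Hoxb9 rose, and the other 6 did not pass with 2 controls. The log2 fold changes of those 6 were -0.46 for Hoxc5, -0.43 for Hoxb8, -0.37 for Hoxb6 and -0.35 for Hoxc8, whose groups still did not overlap, and -0.19 for Hoxa7 and -0.16 for Hoxb7, whose groups did. For Hoxa7 the K14-Cre controls gave 28.7 and 32.7 FPKM, which overlapped the 24.8 to 29.4 of the mutants. With sex as a term 7 members fell and Hoxb9 rose.

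**Figure D4:**
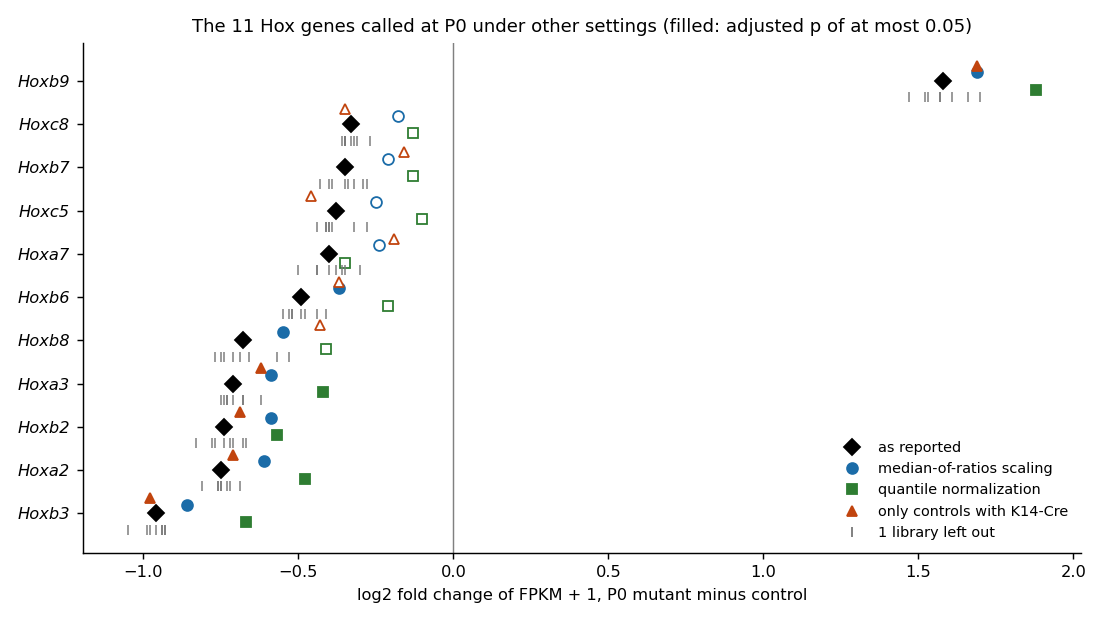
Log2 fold change (mutant minus control) at P0 of the 11 Hox genes called, under the settings named in the plot; filled points have an adjusted p of at most 0.05. Over all 16 alternatives, drawn or not, Hoxb9 stays between 1.47 and 2.17 and Hoxb3 between -1.37 and -0.67, both called throughout.

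At E13.5 by title the differences were smaller and mostly upward, so downward by column name, the naming that Cenpj goes with. Of the 22 members tested, 8 were higher and 2 lower in the titled mutants, against 11.8% and 13.4% of all genes called higher and lower and 25.2% called in either direction. Groups did not overlap for 8 of 22 members, against 28.1% of all genes. The log2 fold change was above 0 for 16 of 22, against 50.3% of all genes, with a median of 0.18. No member (0 of 22) passed the 2-fold rule on log2(FPKM + 1) with an unadjusted p of at most 0.05, which 1.13% of all genes did. By cluster, 2 of 8 were higher in Hox A, 5 higher and 1 lower of 8 in Hox B, 1 higher and 1 lower of 4 in Hox C, and 0 of 2 were called in Hox D.

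Hoxb3 had the largest increase by title, with 4.6, 4.65, 4.4 and 4.84 FPKM in titled controls and 8.05, 7.34, 6.66 and 6.33 in titled mutants (1.54-fold, log2 0.52, SE 0.07, limma adjusted p = 0.00135). No library of either group reached the other, and it was called in 18 of 18 alternatives. Hoxa2 gave 4.98, 6.07, 5.23 and 4.34 FPKM in titled controls and 6.74, 7.28, 7.06 and 7.94 in titled mutants (1.41-fold, log2 0.43, SE 0.09, adjusted p = 0.00891). Hoxb2 gave 20.7, 25.1, 20.6 and 18.9 FPKM in titled controls and 27.2, 26.2, 26.8 and 27.9 in titled mutants (log2 0.34, SE 0.07, adjusted p = 0.0123). Both had every titled mutant above every titled control.

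Among the more posterior members, Hoxc5 gave 23.6, 26.9, 24.6 and 23.5 FPKM in titled controls and 29.5, 28.7, 33.4 and 31.9 in titled mutants (log2 0.31, adjusted p = 0.00668). Hoxb7 gave 19.5, 22.7, 18.9 and 17.7 against 23.7, 24, 25 and 24 FPKM (log2 0.29, adjusted p = 0.0151). Hoxb5, needed with its paralogs for the lung, gave 3.29, 4.4, 3 and 3.42 against 5.02, 5.01, 4.53 and 4.87 FPKM (log2 0.38, adjusted p = 0.0184). None of these 3 overlapped between the groups. Hoxa6, a thoracic gene, gave 11.7, 11.9, 9.7 and 9.67 against 13, 13, 14.6 and 12.6 FPKM (log2 0.29, adjusted p = 0.0255), without overlap. Hoxb8 gave 17.5, 15.5, 14.4 and 16.1 against 20.7, 21.3, 16.5 and 21.9 FPKM (log2 0.32, adjusted p = 0.0318), and titled mutant 3 lay within the range of the titled controls. Hoxa6 and Hoxb8 were each called in 9 of 18 alternatives, with adjusted p up to 0.173 and 0.189. Hoxa6 was lost without titled control 3 or 4 or titled mutant 1, 2 or 3, and Hoxb8 without titled control 2, 3 or 4 or titled mutant 1, 2 or 4.

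The 2 members lower in the titled mutants were Hoxb9 and Hoxc6. Hoxb9 gave 3.15, 2.1, 3.23 and 3.81 FPKM in titled controls and 1.5, 2.41, 1.55 and 1.5 in titled mutants (log2 -0.57, SE 0.15, adjusted p = 0.026). Titled control 2 was the lowest and titled mutant 2 the highest of their groups, so the groups overlapped, and the gene was called in 7 of 17 alternatives (adjusted p 0.00786 to 0.198), with the call lost without titled control 1, 3 or 4 or titled mutant 1, 3 or 4. Titled mutant 2 also had the highest Col1a1, a fibroblast collagen, with 11.2 FPKM against 2.16, 2.8 and 6.35 in the other titled mutants, whose part in the result was not tested. Hoxc6 gave 16.6, 17.5, 16.8 and 16.4 FPKM in titled controls and 13.6, 14, 14.1 and 15.5 in titled mutants (log2 -0.22, SE 0.05, adjusted p = 0.0112), without overlap. The abundant Hoxa7, with 88.5, 88.5, 94.5 and 84.9 FPKM in titled mutants (adjusted p = 0.0896), Hoxc8, with 36.9, 36.4, 35.5 and 34.5 (adjusted p = 0.128), and Hoxa5, with 39.6, 38, 42.8 and 37.8 (adjusted p = 0.509), overlapped their controls and did not pass. Hoxa3 gave 12.8, 15.5, 10.7 and 9.82 FPKM in titled controls and 16.5, 14.9, 15.4 and 15.2 in titled mutants, and Hoxb6 gave 9.6, 8.87, 9.28 and 9.4 against 11.1, 12.3, 9.09 and 12.4, with overlap and adjusted p of 0.0636 and 0.0781. Overlap without a call was also found for Hoxc4, with 26.9, 23.8, 26.8 and 24.3 FPKM (adjusted p = 0.26), Hoxd8, with 2.4, 3.03, 1.95 and 2.83 (adjusted p = 0.107), and Hoxd4, with 2.78, 3.18, 2.17 and 2.09 (adjusted p = 0.48).

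Most E13.5 calls were lost when both titled controls with label number 67 were left out, while the fold changes kept their directions. With these 2 libraries left out, only 2 titled controls remained, and Hoxb3 alone of the 22 members was called. Calls over all genes also fell, from 3243 to 1159. Without titled control 3 alone or titled control 4 alone, 7 members were called. The other 2 titled controls were not left out together. With the number as a term in the fit Hoxb3 and Hoxc5 were higher and Hoxc6 lower. The 2 libraries were below both other titled controls for 7 of 22 members and above both for 3, against 18.7% and 23.2% of all genes tested. Without them the log2 fold change was 0.52 for Hoxb3, 0.34 for Hoxa2 (adjusted p = 0.0677), 0.28 for Hoxc5, 0.24 for Hoxb2, 0.19 for Hoxb7, 0.16 for Hoxa6, -0.24 for Hoxc6 (adjusted p = 0.0672) and -0.40 for Hoxb9. What the number stands for is not given, and its part in the result was not tested further.

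**Figure D5:**
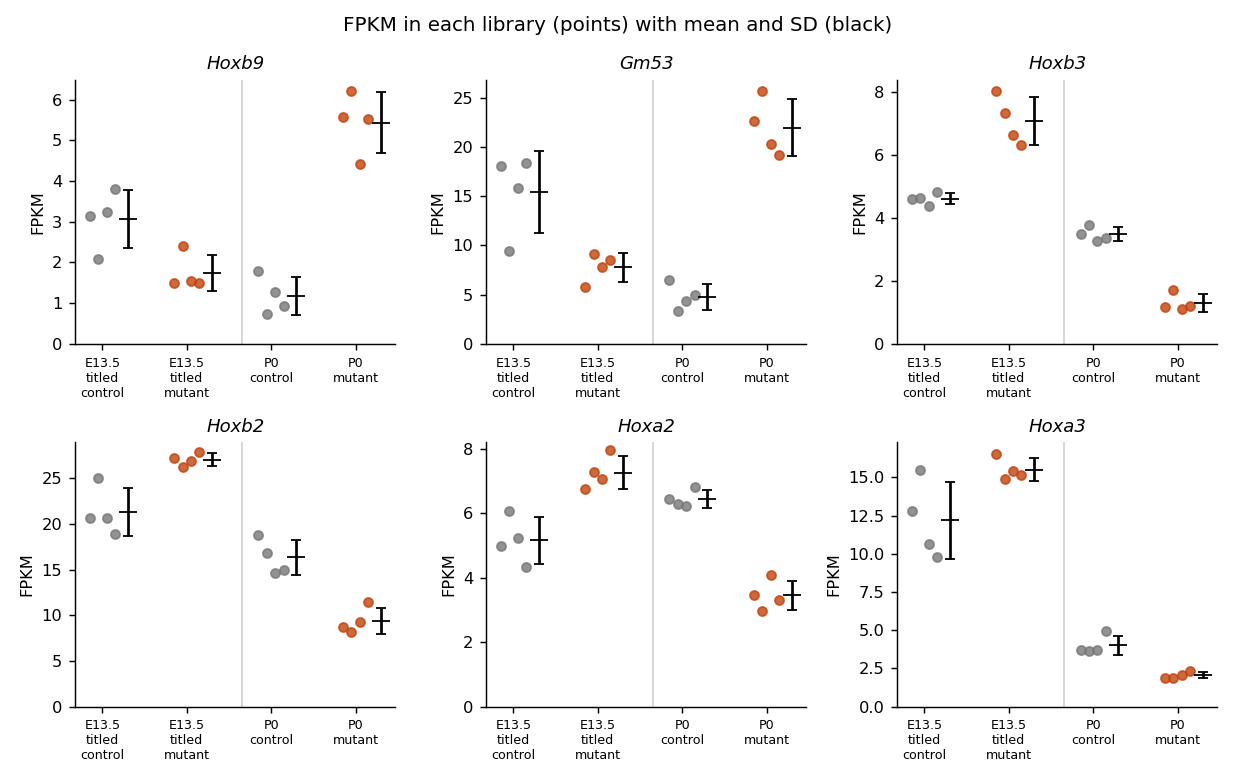
FPKM in each library (points) with mean and SD (black) for selected Hox genes and Gm53, in the E13.5 titled control, E13.5 titled mutant, P0 control and P0 mutant groups, 4 libraries each. At P0 the mutants lie above the controls for Hoxb9 (4.41 to 6.21 against 0.727 to 1.78 FPKM) and below them for Hoxb3 (1.12 to 1.73 against 3.27 to 3.78).

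The difference between the genotype effects of the stages, as P0 minus E13.5, was tested in a joint fit. By title it passed for 15 of 21 members, 14 with a lower and 1 with a higher P0 effect, against 46.4%, 31.8% and 14.6% of the 11858 genes tested. The largest were Hoxb9 with 2.15 (adjusted p = 2.13e-06) and Hoxb3 with -1.49 (adjusted p = 1.79e-07) on the log2 scale. By column name it passed for 5 of 21, against 32.8% of all genes, with the P0 effect lower for 4 (Hoxb2, Hoxb3, Hoxc8 and Hoxd8, against 25.2%) and higher for Hoxb9 (1.01, adjusted p = 0.00341, against 7.58%). Which genes changed differently at the stages thus depended on which E13.5 label is used, and Hoxb2, Hoxb3, Hoxb9 and Hoxc8 passed with both.

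The noncoding RNA next to Hoxb9 had values that were high where Hoxb9 was high. Gm53, a long intergenic noncoding RNA at chr11:96251105-96264868 on the plus strand between Hoxb13 and Hoxb9, was singled out after its values were seen. At P0 it gave 6.46, 3.38, 4.32 and 4.97 FPKM in controls and 22.6, 25.7, 20.3 and 19.2 in mutants, 4.59-fold higher (log2 2.01, SE 0.16, adjusted p = 2.41e-05). At E13.5 it gave 18.1, 9.45, 15.9 and 18.4 FPKM in titled controls and 5.77, 9.15, 7.79 and 8.49 in titled mutants (log2 -0.88, SE 0.20, adjusted p = 0.0149). Groups were apart at both stages, and titled control 2 and titled mutant 2 were again nearest to each other. The P0 difference was called in 17 of 17 alternatives and the E13.5 difference in 16 of 18, the exceptions being the fits without label number 67 and with it as a term.

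Of the 6 listed noncoding transcripts tested at E13.5, 3 were higher and 0 lower in titled mutants, and of 5 tested at P0, 0 were higher and 2 lower, against 11.8% of all genes higher at E13.5 and 30.7% lower at P0. Hoxb3os, antisense to Hoxb3, gave 14.9, 17.3, 14 and 14.7 FPKM in titled controls and 19.1, 19.4, 18.4 and 19.2 in titled mutants (log2 0.31, adjusted p = 0.0073). At P0 it gave 8.24, 8.42, 7.87 and 7.33 FPKM in controls and 4.24, 4.34, 4.69 and 3.68 in mutants (log2 -0.78, adjusted p = 0.00019). It moved in the direction of Hoxb2 and Hoxb3 at each stage, with which it shares bases. Hoxaas2, antisense to Hoxa3, gave 3.57, 3.48, 3.54 and 4 FPKM in titled controls and 5.69, 5.12, 5.18 and 5.18 in titled mutants (log2 0.44, adjusted p = 0.00135). Hoxaas3, which overlaps 20.4% of the exonic bases of Hoxa7, gave means of 6.1 and 8.2 FPKM at E13.5 (log2 0.38, adjusted p = 0.0437) and of 3.59 and 2.6 at P0 (log2 -0.35, adjusted p = 0.0368). It was called in 8 of 18 alternatives at E13.5 and 6 of 16 at P0, where the log2 fold change went from -0.47 to -0.07. Hotairm1, an abundant transcript of the Hox A cluster, gave means of 85 and 96.5 FPKM at E13.5 and 55.2 and 62.8 at P0 and was not called. Hottip and Hotair, at the 5′ ends of the A and C clusters, were listed at 0 throughout.

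Downstream of Gm53 lies the Mir196a-1 hairpin, which starts 296 bases after its end and ends 6192 bases before Hoxb9. The mature miRNAs of this family, which are known to repress Hox genes, were not measured by these libraries. Their RefSeq sequences (GRCm38.p6), at chr11:96265187-96265208 for miR-196a-5p and chr6:52230129-52230150 on the minus strand for miR-196b-5p of the Hox A cluster, share the seed, bases 2 to 8, in capitals. The known target site in the 3′ UTR of Hoxb8, chr11:96284888-96284909, from the GENCODE M21 transcript on the same build, is shown with the bases that match the exact complement of miR-196a-5p in capitals.
mmu-miR-196a-5p: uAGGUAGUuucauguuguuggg
mmu-miR-196b-5p: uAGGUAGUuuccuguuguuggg
Hoxb8 site: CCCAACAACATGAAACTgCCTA
In this site 21 of 22 bases match the exact complement, and the g in small letters lies opposite a U of the seed. Of 21877 genes searched Hoxb8 was the only one with 20 or more matches (0.00457%). The most among the other members was 15. Hoxb8 fell at P0, as did 4 other members of its cluster, and Hoxa4 and Hoxd8, the members with 15, gave log2 fold changes of -0.37 and -0.33 without passing.

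Of the 7 Hox cofactors tested at P0, 5 fell and 0 rose in the mutants, against 30.7% and 11.7% of all genes. Meis2 (log2 0.21, adjusted p = 0.253) and Pbx3 (log2 -0.14, adjusted p = 0.204) did not pass. Pbx2, a homeodomain partner of Hox proteins, gave 44.5, 45.6, 41.6 and 42.9 FPKM in controls and 27, 25.6, 29 and 26.1 in mutants (log2 -0.68, adjusted p = 8.42e-05), without overlap. Pknox1 (log2 -0.58), Meis3 (-0.52) and Meis1 (-0.42) also fell. At E13.5, 3 of 8 were higher in titled mutants (Meis1 and Pknox2 among them) and 0 lower, against 11.8% and 13.4% of all genes. Pknox2 entered the test through the titled mutants, at 1.11 to 1.71 FPKM, with titled controls at 0.337 to 1. Its call is therefore not independent of the filter.

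Among 23 Polycomb genes, 12 fell and 1 rose at P0, and 7 were higher and 3 lower in titled mutants at E13.5. For these and the next 3 lists the shares of all genes are 30.7% lower and 11.7% higher at P0, and 11.8% higher and 13.4% lower at E13.5. Phf19 (log2 -1.41), Cbx6 (-0.92), Cbx2 (-0.75) and Ezh2 (-0.69), the methyltransferase of Polycomb complex 2, fell at P0, and Jarid2 rose (0.42). Of 12 Trithorax genes 9 fell and 0 rose at P0, and 4 were higher and 1 lower at E13.5. Of 15 tested genes that flank the clusters, 6 fell and 1 rose at P0, and 1 was higher and 1 lower at E13.5.

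Retinoic acid is known to switch on 3′ Hox genes. Of the 10 genes of its pathway tested at P0, 3 rose and 4 fell. Crabp2, which brings retinoic acid to its receptors, gave 9, 9.71, 11 and 11.7 FPKM in controls and 61.8, 55.1, 53.6 and 76.2 in mutants (log2 2.46, adjusted p = 2.27e-06). Every mutant library was far above every control. Aldh1a3, an enzyme that makes retinoic acid, also rose, and Dhrs3 (log2 -0.83), Rara (-0.67), Rarg and Rxrb, the last 3 receptors, fell. Aldh1a3 entered the test through the mutants, at 1.04 to 2.3 FPKM, with controls at 0.611 to 1.25, so its call is not independent of the filter. At E13.5, 3 of 11 were higher and 1 lower. Cdx1, Cdx2 and Cdx4, activators of central Hox genes in the early embryo, were listed at 0 in all E13.5 libraries, and Wnt3a, the one gene of its list tested at P0, fell (means of 9.09 and 5.36 FPKM).

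Markers of other cells moved with the genotype groups. In bulk samples fewer cells of a type and less RNA per cell cannot be told apart. Of all genes tested, 30.7% were lower and 11.7% higher at P0. At E13.5, 11.8% were higher and 13.4% lower in titled mutants. The 16 fibroblast markers summed to 480.5 to 579.9 FPKM in P0 controls and 145.6 to 261.2 in mutants, with 4 lower and 1 higher of 7 tested, and to 281.5 to 314.0 in E13.5 titled controls and 462.5 to 482.2 in titled mutants, with 2 higher and 0 lower of 9. Most of that sum was Postn, a matrix protein, at means of 282.3 and 44.2 FPKM at P0 and 149.1 and 307.8 at E13.5, and Dcn, at means of 207.6 and 123.7 at P0. Pdgfra, a defining receptor of fibroblasts, gave at most 0.132 FPKM in any P0 library and 0.725 at E13.5, and none of the 16 markers was at 0 in all libraries of a stage. All 15 hair follicle markers fell at P0, from sums of 434.1 to 492.6 FPKM to 88.9 to 166.6, and 5 of 11 tested were higher in titled mutants at E13.5 (281.5 to 310.5 against 349.4 to 380.5). The 9 myeloid and T cell markers summed to 79.5 to 96.9 FPKM in P0 controls and 45.2 to 62.3 in mutants, with 6 of 7 lower and 1 higher. Melanocyte markers went the other way, with 5 of 8 higher at P0 (225.8 to 295.7 against 320.6 to 678.4 FPKM) and 4 of 7 lower in titled mutants at E13.5 (72.8 to 85.7 against 57.4 to 58.9). Periderm markers were lower for 3 of 6 in titled mutants at E13.5 (273.8 to 387.6 against 212.3 to 287.2 FPKM), and Merkel cell markers, none of which passed the filter at P0, summed to 3.66 to 3.99 FPKM in P0 controls and 0.201 to 0.583 in mutants. Of the 11 keratinocyte markers, 5 were higher and 0 lower in titled mutants at E13.5. These were Krt1 (log2 1.85) and Krt10 (0.90), keratins of differentiating layers, and Col17a1 (0.74), Krt15 (0.62) and Trp63 (0.30). At P0, 3 rose, Krt14 (log2 0.92), Itgb4 (0.72) and Dsp (0.64), and 1 fell, Krt15 of basal cells (-3.57). The part of these markers in the Hox results was not tested.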

How the data were processed

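The deposited tables, 1 per stage, hold FPKM per gene in 16 libraries, made by the authors with the QuickNGS pipeline. Tools and build listed in the notes of the submitters are FastQC 0.11.5, bcl2fastq (2.17.1.14, also 2.18.0.12) and mm10. The aligner and the use of strand in counting are not given in the sources used here, and reads per gene are unknown. Groups came from the titles, and 0 columns of per-sample values were left unmapped. The 38 members' coordinates are identical in GENCODE M21.

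Each stage was tested alone. A gene entered if 4 or more libraries reached 1 FPKM, and was tested on log2(FPKM + 1), which understates changes of low genes, with limma 3.58.1 (R 4.3.3) with a mean trend, two-sided, at a Benjamini-Hochberg adjusted p of at most 0.05 over all genes tested. The stage contrast used genes that pass at both stages. Where the libraries of 1 group lay below 1 FPKM, a gene entered through the other group alone. Python 3.11.15, pandas 2.3.3, numpy 2.4.6, scipy 1.17.1 and matplotlib 3.10.9 were used.

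The members and gene lists were chosen with earlier results of these data known. Every member is accounted for. Values in every library are given for members called at either stage, for the 3 highest of each cluster with a mean of at least 1 FPKM, and for any member with groups apart by 2-fold or more. Of the other lists, called genes of smallest adjusted p are named. Alternatives were another pseudocount, filter, scaling, fit without trend, sex or label term, replicate block, fewer controls and leaving out each library. Some genes counted above, 1 Hox gene among them, are not reported here by name or drawn, and Hoxc13 was not analysed here.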

Additional observations from a re-analysis of the deposited data

Results flagged for a closer look

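In 4 of 82 groups of 4 libraries (4.88%) a library stood apart from the other 3 by Dixon's test, where chance gives about 1 in 20. Hoxb9 was 2.41 FPKM in E13.5 titled mutant 2, against 1.5 to 1.55 in the others. At P0 Hoxb3 was 1.73 FPKM in mutant 2 (others 1.12 to 1.2) and Hoxc8 was 7.34 FPKM in mutant 1 (others 8.91 to 9.03). P0 control 4 was apart for Hoxa3 with 4.96 FPKM (others 3.65 to 3.71).

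The genotype effect differed between the stages in limma. With the E13.5 groups taken by title, the P0 effect minus the E13.5 effect on the log2 scale was 2.15 for Hoxb9 and -1.49 for Hoxb3. It was -1.18 for Hoxa2, -1.07 for Hoxb2 and -1.05 for Hoxa3, with adjusted p of 2.65e-06, 2.08e-05 and 9.97e-05. For Hoxb8 it was -1.0, for Hoxb6 -0.73, for Hoxc5 -0.69, for Hoxb5 -0.69 and for Hoxb7 -0.64, with adjusted p from 0.000688 to 0.00155. It was -0.61 for Hoxa4, -0.51 for Hoxa7, -0.46 for Hoxc4, -0.33 for Hoxb4 and -0.24 for Hoxc8, with adjusted p from 0.00716 to 0.0461.

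With the E13.5 groups taken by column name, the difference was 1.01 for Hoxb9 (adjusted p = 0.00341) and -0.42 for Hoxc8 (adjusted p = 0.00247). It was -0.64 for Hoxd8 (adjusted p = 0.0119), -0.44 for Hoxb3 (adjusted p = 0.0136) and -0.40 for Hoxb2 (adjusted p = 0.0414). Hoxb2, Hoxb3 and Hoxb9 differed by less than by title, and Hoxc8 and Hoxd8 by more.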

How the results depend on the processing

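Of the 22 Hox genes tested at E13.5, 10 were called, and the count was 3 with label number 67 as a term, 1 without its libraries, 6 with no filter and 0 with the 2-fold rule. At P0 the 11 called became 4 of those with a mean FPKM of at least 5, and 7 with median-of-ratios scaling. They became 6 with quantile normalization and 5 with only K14-Cre controls. The 2-fold rule, taken on log2(FPKM + 1), left 1 and did not include Hoxb3, which was 2.66-fold lower in FPKM. Leaving out 1 library gave 7 to 11 Hox calls at E13.5 and 8 to 13 at P0, 12 to 16 for the stage difference by title and 4 to 7 by column name, and 22 and 20 to 21 members at 1 FPKM.

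Over all genes, 3243 were called at E13.5, 1596 with the label number as a term, 1159 without its libraries, 145 with the 2-fold rule (27 higher and 118 lower in titled mutants, the reverse by column name) and 2098 to 3207 without 1 library, the lowest without titled control 3 (2161 without titled control 4). At P0 5515 were called, 2428 with only K14-Cre controls, 1038 with the 2-fold rule and 3919 to 6378 without 1 library. With a mean FPKM of at least 5 the stage difference passed for 6 members by title and 2 by column name, where median-of-ratios scaling gave 3 and quantile normalization 2. At a mean of 5 FPKM 11 members counted as expressed in P0 controls.

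Of the members not called at P0, Hoxa6 turned to 0.12 with quantile normalization. Hoxc6 (0.03) ranged from -0.11 to 0.26 over its alternatives. It was -0.11 without mutant 4, 0.12 without mutant 1 and -0.02 without control 3. The cause was not tested.

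The replicate numbers gave no clear sign of pairing. Same-numbered libraries had correlations of 0.0016, -0.0142, 0.0676 and 0.0247 at E13.5 and -0.00635, 0.111, -0.0237 and -0.0136 at P0. The best partner was the own number for 2 of 4 and 1 of 4. With 4 libraries per group these values cannot exclude pairing. With a replicate block 9 Hox genes were called at E13.5 (8 shared) and 11 at P0 (10 shared), 2766 and 5130 of all genes, and the stage difference passed for 13 members by title and 4 by column name. FPKM keeps no read depth, so members listed at 0 were not detectable here rather than absent.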
